A study of Saccharomyces cerevisiae with 12 samples.

Results

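The 2 wild-type groups of this budding yeast series, WT_Ino80 and WT_H2AZ, are compared here with each other, 3 libraries against 3. They make up 6 of the 12 libraries, and they were taken as all wild-type columns of the deposited count tables, joined by gene identifier. Both are labelled BY4741 in the S288C background with no treatment, grown in YPD to mid-log phase, and sequenced from total RNA with KAPA HTP libraries. WT_H2AZ is the control of H2AZ_4KR, a strain with 4 lysines of the histone variant H2A.Z replaced by arginine as its name states, and WT_Ino80 is the control of Ino80_K929R, a strain with a substitution in the INO80 remodelling ATPase. Each wild type stands in its own count table beside its mutant, so strain, table and any batch differ together and cannot be told apart. The labels name no date of extraction or sequencing and do not tie replicates to cultures.

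BY4741 is a haploid strain of mating type a that carries marker deletions used for selection, among them LEU2, an enzyme gene of leucine synthesis. In yeast, leucine is made from the valine pathway by isopropylmalate synthase, isomerase and dehydrogenase, and the intermediate isopropylmalate switches the transcription factor Leu3 from a repressor into an activator of several genes of the pathway. RNA levels in rich glucose medium also follow growth: genes for ribosome assembly and ribosomal proteins are expressed together in fast growth, while stress, respiratory and glucose-repressed genes are low.

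The 6 libraries held 17303402 to 18957785 counted fragments (read pairs), and a count of 0 allows up to 3 fragments, or 0.158 to 0.173 CPM (fragments of a gene per 1000000 counted), which covers counting error only. Replicates of WT_H2AZ were closer to each other than those of WT_Ino80, with a median coefficient of variation over genes of 9.35% against 20.7%. WT_Ino80 replicate 1 stood apart: ribosomal protein genes took 19.6% of its fragments, against 14.03% and 14.06% in the other WT_Ino80 libraries and 8.88% to 10.3% in WT_H2AZ. The mean length of the gene behind a fragment was 1229 bases in that library, 1447 and 1451 in the other WT_Ino80 libraries and 1506 to 1548 in WT_H2AZ. Each count below that moved by more than 1.5 times without this library, or without another, is given with its value there.

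Of 6235 genes tested with edgeR in 1 fit of all 12 libraries, 1101 (17.7%) were higher in WT_Ino80 than in WT_H2AZ and 935 (15%) were lower, 32.7% in all, with limits of 0.05 on the Benjamini-Hochberg adjusted p and of 1.5 on the fold. A gene is called higher or lower in what follows only where it passed both limits, and the direction is always that of WT_Ino80 over WT_H2AZ. The shares of 17.7% higher and 15% lower are the background of every list count below. DESeq2 called 2128 genes, and 2012 of the 2036 called by edgeR were among them. Without WT_Ino80 replicate 1, 974 genes (15.5%) were higher and 899 (14.3%) lower, and 1612 of the 2036 kept their call. Scaled by total counts the majority turned, with 949 genes higher and 1012 lower, and the share of higher genes among those called went from 54.1% to 48.4%. The CPM ranges of the groups did not overlap in 3098 genes (49.7%). Most differences were modest, with a median size over all genes of 0.45 on the log2 scale, and 162 called genes differed by more than 4-fold.

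The step from one table to the other can also be taken between the mutants, Ino80_K929R against H2AZ_4KR, which shares no library with the wild types but holds both mutations as well. There 1058 genes (17%) were called, 648 (10.4%) higher and 410 (6.58%) lower. Those shares, 10.4% and 6.58%, are the background of list counts between the mutants. Of the genes higher between the wild types, 432 were also higher between the mutants, which is 39.2% of the wild-type list and 66.7% of the mutant list. Of the lower genes 242 were shared, 25.9% of the wild-type list and 59.0% of the mutant list, and 3 higher and 5 lower genes had the opposite call between the mutants. Across the 6235 genes the log2 differences had a Pearson r of 0.57, with the tables common to both axes. When libraries were scaled by their totals, the median over all genes shifted by 0.12 between the mutants, and the share of higher genes among those called there went from 61.2% to 75.9%. A test of the wild-type difference against the mutant difference called 265 genes (4.25%), 124 with a positive value (1.99%) and 141 with a negative one (2.26%).

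RNA of LEU2 was present in WT_Ino80 and not detected in WT_H2AZ. In a list of leucine synthesis genes and known Leu3 targets, 9 other genes were lower in WT_Ino80. LEU2 (YCL018W), which encodes isopropylmalate dehydrogenase, had 0 fragments in all 3 WT_H2AZ libraries and stood at 183, 160 and 156 CPM in WT_Ino80 replicates 1, 2 and 3. Against the floor of 3 fragments per library it was at least 968-fold higher in WT_Ino80, and both mutants carried it too, at 138 ± 18.3 CPM (SD, n = 3) in H2AZ_4KR and 146 ± 21.6 CPM (SD, n = 3) in Ino80_K929R. WT_H2AZ was therefore the one group of the 4 without LEU2 RNA. The labels give BY4741 for all of them, a strain that lacks LEU2, so LEU2 RNA in WT_Ino80 and in both mutants goes against that label. Where it comes from is not given in the sources used here, and the groups are called by their labels throughout. The leucine tRNA gene tL(CAA)C, which neighbours LEU2, was also at 0 in WT_H2AZ and at 1.44, 0.749 and 0.435 CPM in WT_Ino80, at least 5.10-fold higher on average against the same floor.

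Of the 18 genes of leucine synthesis and known Leu3 targets, LEU2 was higher, 9 were lower and 8 were not called, against backgrounds of 17.7% and 15% of all genes. The list's median log2 difference was -0.57, with LEU2 at its bound or at its fitted value, against 0.03 over all genes. Sequence of some promoters is shown here because the list includes known targets of Leu3, which binds promoters. The Leu3 motif, CCG and CGG with any 4 bases between them, reads the same on both strands and was searched in the 300 bases from 250 before to 50 after each start codon (the ATG, since most gene models hold no untranslated ends). It was found in 4 of the 18, at LEU1, LEU2, BAT1 and MAE1, and in 1.44% of 5979 such windows over the genome. MAE1 was not called and its window is not printed. A match is a description of these letters and not of binding. The windows of LEU1 (chrVII:478603-478902, minus strand), LEU2 (chrIII:91074-91373, plus strand) and BAT1 (chrVIII:517282-517581, plus strand) on sacCer3 are given 5′ to 3′ with the motif in capitals. They were read from the R64 reference, which is the same build.
LEU1: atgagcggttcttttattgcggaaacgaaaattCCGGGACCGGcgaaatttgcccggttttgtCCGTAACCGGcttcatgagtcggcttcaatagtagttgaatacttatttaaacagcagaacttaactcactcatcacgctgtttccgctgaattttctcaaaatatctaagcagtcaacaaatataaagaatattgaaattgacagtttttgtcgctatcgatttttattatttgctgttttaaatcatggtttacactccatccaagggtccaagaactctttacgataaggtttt
LEU2: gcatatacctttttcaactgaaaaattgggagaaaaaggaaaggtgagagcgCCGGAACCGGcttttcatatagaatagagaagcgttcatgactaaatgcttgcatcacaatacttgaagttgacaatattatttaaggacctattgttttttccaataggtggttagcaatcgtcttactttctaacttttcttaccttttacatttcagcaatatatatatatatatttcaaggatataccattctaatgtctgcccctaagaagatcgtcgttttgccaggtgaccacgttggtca
BAT1: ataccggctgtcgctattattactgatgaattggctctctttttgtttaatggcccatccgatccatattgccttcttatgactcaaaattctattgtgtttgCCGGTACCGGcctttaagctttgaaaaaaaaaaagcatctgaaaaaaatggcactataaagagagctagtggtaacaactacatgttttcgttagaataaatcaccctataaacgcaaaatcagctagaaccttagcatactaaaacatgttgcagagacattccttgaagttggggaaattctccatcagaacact
The first match lay 217 bases before the start codon of LEU1, whose window held 2 matches, 198 bases before that of LEU2 and 147 bases before that of BAT1.

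LEU1 (YGL009C), the isopropylmalate isomerase gene that acts just before LEU2, stood at 486, 416 and 499 CPM in the WT_H2AZ libraries and at 66.6, 121 and 104 CPM in WT_Ino80. It was lower by a log2 difference of -2.23 (SE 0.161, adjusted p = 6.02e-06), and no library of one group reached the range of the other. In the mutants it was at 144 to 160 CPM in H2AZ_4KR and 93.3 to 120 CPM in Ino80_K929R, so that all 3 WT_H2AZ libraries lay above the other 9. BAP2, a permease gene for branched-chain amino acids, was at 1040, 1101 and 1223 CPM in WT_H2AZ and at 293, 459 and 435 CPM in WT_Ino80 (log2 difference -1.46, SE 0.147, adjusted p = 4.67e-05). BAT1, the mitochondrial branched-chain aminotransferase gene, was at 501, 517 and 598 CPM in WT_H2AZ and at 154, 226 and 200 CPM in WT_Ino80 (log2 difference -1.43, SE 0.132, adjusted p = 2.6e-05). LEU4, the main isopropylmalate synthase gene, was at 904, 883 and 926 CPM in WT_H2AZ and at 265, 472 and 382 CPM in WT_Ino80 (log2 difference -1.24, SE 0.163, adjusted p = 0.000148). At each of these 4 genes all 3 WT_H2AZ libraries lay above the other 9. The other 3 groups were not alike at LEU1, where H2AZ_4KR lay above WT_Ino80 and Ino80_K929R.

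Over the whole list, 8 of 18 members had all 3 WT_H2AZ libraries above the other 9, against 12.3% of all genes. The other lower members were OAC1, a mitochondrial carrier gene for oxaloacetate and isopropylmalate (-1.14), ILV3, the dihydroxyacid dehydratase gene (-1.10), BAP3, another permease gene (-0.83), ILV2, the acetolactate synthase gene (-0.73), and LEU9, the minor isopropylmalate synthase gene (-0.71). ILV2 and LEU9 were under the fold limit with the gene length offset described below (-0.52 and -0.58). LEU9 was also under it without WT_Ino80 replicate 1 (-0.49, adjusted p = 0.0253) and had an adjusted p = 0.0628 without WT_H2AZ replicate 3 (-0.64). LEU9 and LEU4 have gene models that overlap another, so their counts are uncertain. Members not called ranged from -0.43 for GDH1, a glutamate dehydrogenase gene, to 0.45 for BAT2, the cytosolic aminotransferase gene, and included LEU3 itself at 0.11. BAT2 passed without WT_Ino80 replicate 3 (0.60, adjusted p = 0.0492). Between the mutants, which both have LEU2 RNA, 3 of the 18 members were lower and none was higher.

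**Figure D1:**
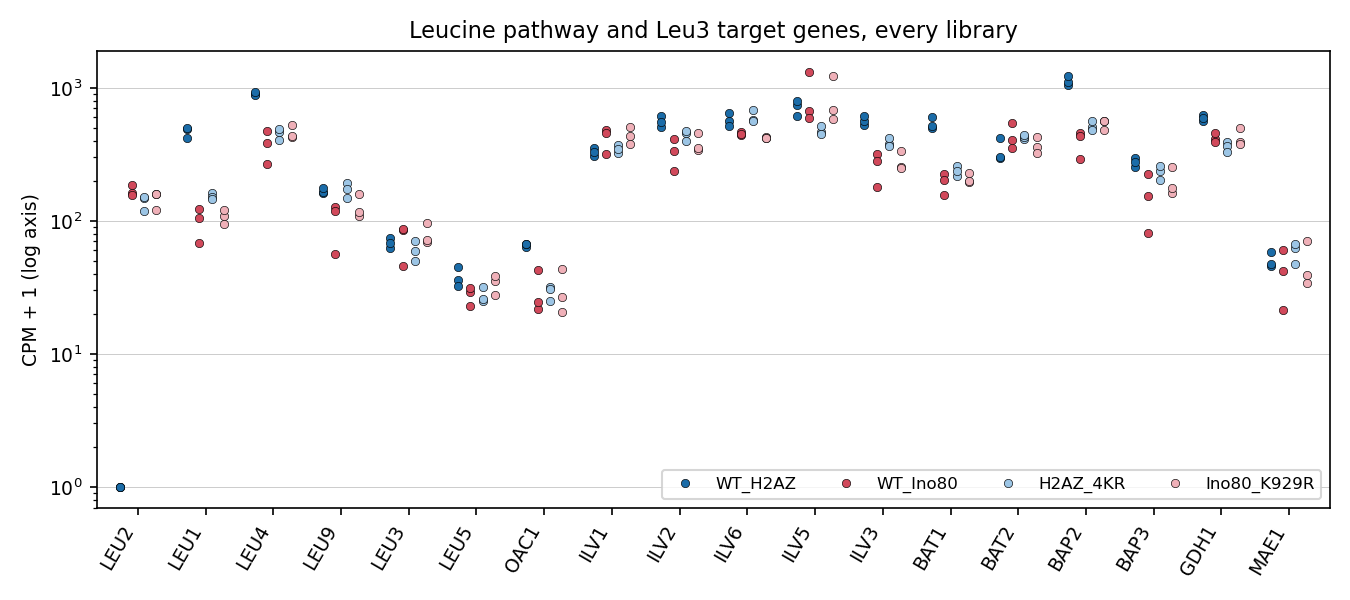
CPM plus 1 of the 18 leucine pathway and Leu3 target genes on a log axis, with 1 point per library and colours for the 4 groups. WT_H2AZ is at 0 for LEU2 (drawn at 1) and lies above the other 9 libraries for LEU1, LEU4, BAT1 and BAP2, while LEU3 and MAE1 overlap between groups.

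The other marker genes of BY4741 were read as a check of the labels. MET17, which is deleted in this strain, had 0 fragments in every library, and URA3, also deleted, had at most 0.116 CPM. LYS2, which BY4741 keeps, was at 158, 158 and 160 CPM in WT_H2AZ and at 98.4, 181 and 143 CPM in WT_Ino80 and was not called. HIS3, of which BY4741 lacks an internal stretch, was at 136, 176 and 179 CPM in WT_H2AZ and at 87, 71 and 60.4 CPM in WT_Ino80, lower by a log2 difference of -1.08 (SE 0.208, adjusted p = 0.00162), though its model overlaps another gene. The genes mutated in the other arms were also read: HTZ1, which encodes H2A.Z, was at 98.9, 95.5 and 93.2 CPM in WT_H2AZ and at 143, 141 and 143 CPM in WT_Ino80. Its difference of 0.64 (SE 0.137, adjusted p = 0.00292) passed the fold limit narrowly, and it fell under that limit when scaled by total counts (0.57), with a gene length offset (0.38) and without WT_Ino80 replicate 1 (0.53). In H2AZ_4KR, HTZ1 was at 344 to 459 CPM, above every other library. INO80 was at 163 to 185 CPM in WT_H2AZ and 126 to 175 CPM in WT_Ino80 and was not called, and it stood at 1073 to 1366 CPM in Ino80_K929R.

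Both wild types expressed genes of a cells. HMRA1, which shares its sequence with the a locus, was at 24.7 to 42.2 CPM in WT_H2AZ and 17.5 to 25.3 CPM in WT_Ino80. The alpha genes MATALPHA1 and HMLALPHA1 have the same sequence in the reference and fragments that mapped to several places were not counted, so their counts cannot show whether alpha RNA was present and are not used. Of the 7 a-cell markers 5 were lower in WT_Ino80 and none was higher, and their summed level ran from 1575 to 2226 CPM in WT_H2AZ and from 706 to 1448 CPM in WT_Ino80. Without WT_H2AZ replicate 2, 3 of the 7 were lower. MFA2, a gene of the a-factor pheromone, was at 198, 405 and 199 CPM in WT_H2AZ and at 46.1, 73.9 and 56 CPM in WT_Ino80 (log2 difference -2.12, SE 0.237, adjusted p = 7.4e-05). AGA2, the binding subunit gene of a-agglutinin, differed by -1.36 and BAR1, the protease gene that degrades alpha-factor, by -0.995. In bulk RNA, fewer cells that express a gene and less RNA per cell cannot be told apart.

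Of the 4 alpha-cell markers 3, all at low levels, were higher and 1, SAG1, was lower. The summed levels of the 4 markers were 68.4 to 78.6 CPM in WT_H2AZ, most of it SAG1, and 49.2 to 75.8 CPM in WT_Ino80. Among them STE3, the a-factor receptor gene, was at 2.75, 2.22 and 2.49 CPM in WT_H2AZ and at 14.7, 12.8 and 14.6 CPM in WT_Ino80 (log2 difference 2.57, SE 0.319, adjusted p = 0.000109), with a gene model that overlaps another. MF(ALPHA)1 and MF(ALPHA)2, the alpha-factor genes, were also higher, at no more than 5.78 and 21.6 CPM in any WT_Ino80 library. SAG1, the alpha-agglutinin gene, was lower, from 59.9 to 69.7 CPM in WT_H2AZ to 10.6 to 43.4 CPM in WT_Ino80.

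Genes that build and make up the ribosome were higher in WT_Ino80. Of 56 ribosome biogenesis genes (the UTP, RRP, NOP and NOC genes, whose products process ribosomal RNA and assemble subunits), 49 were higher, 7 were not called and none was lower, with a median log2 difference of 0.97. The count was 48 without WT_Ino80 replicate 1 and 48 with the gene length offset, and 33 of the 56 were also higher between the mutants. NOP15, of the large subunit pathway, was at 59.8, 50.4 and 57.3 CPM in WT_H2AZ and at 146, 177 and 145 CPM in WT_Ino80 (log2 difference 1.54, SE 0.15, adjusted p = 3.74e-05). NOP4, of the same pathway, was at 47.7 to 51.9 CPM in WT_H2AZ and 127 to 182 CPM in WT_Ino80, though its model overlaps another gene. The CPM ranges of the groups did not overlap at 44 of the 56 genes, against 49.7% of all genes tested.

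RRP8, a methyltransferase gene for the large ribosomal RNA, was at 44.2, 46.7 and 40.6 CPM in WT_H2AZ and at 106, 115 and 105 CPM in WT_Ino80 (log2 difference 1.39, SE 0.155, adjusted p = 7.4e-05). Its promoter is shown because it holds the PAC element, the letters GCGATGAG, which is known from many genes of this group. Searched on both strands in the same 300-base windows, PAC was found in 24 of the 56 genes (42.9%), against 3.95% of all 5979 windows. It was present in 14.3% of the windows of genes called higher and in 0.894% of those called lower. The window of RRP8 (chrIV:611823-612122, plus strand, sacCer3) is given 5′ to 3′ with PAC in capitals, 89 bases before the start codon.
RRP8: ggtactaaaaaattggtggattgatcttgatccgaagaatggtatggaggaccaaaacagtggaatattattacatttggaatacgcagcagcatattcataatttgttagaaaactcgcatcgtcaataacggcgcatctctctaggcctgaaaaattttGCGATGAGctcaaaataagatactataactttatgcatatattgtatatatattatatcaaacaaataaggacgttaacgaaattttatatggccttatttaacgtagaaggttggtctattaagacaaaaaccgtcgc

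Ribosomal protein genes were higher too, but their counts leaned on 1 library. Of 79 genes of the large subunit 62 were higher and of 56 of the small subunit 40 were higher, with medians of 0.88 and 0.80 and none lower. Without WT_Ino80 replicate 1, the library that stood apart, 38 and 25 were higher and 2 of the small subunit were lower, and with the gene length offset 39 and 25 were higher. With that offset and without that library, a setting added after seeing the data, 21 and 19 were higher, with medians of 0.47 and 0.43. Between the mutants 1 gene of each subunit was higher, while 5 of the large and 8 of the small subunit were lower. RPL18B was at 223, 204 and 219 CPM in WT_H2AZ and at 519, 611 and 558 CPM in WT_Ino80 (log2 difference 1.45, SE 0.138, adjusted p = 3.24e-05). RPS24A was at 406, 598 and 566 CPM in WT_H2AZ and at 1586, 1177 and 1183 CPM in WT_Ino80 (log2 difference 1.42, SE 0.204, adjusted p = 0.000263), with replicate 1 the highest. Many of these genes have near-identical copies, and fragments that mapped to several places were not counted, so the split between copies is uncertain.

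All 3 WT_H2AZ libraries lay below the other 9 for 55 of 79 large and 39 of 56 small subunit genes, against 4.94% of all genes tested. For ribosome biogenesis this was so for 11 of 56. Summed levels of large subunit genes were 51780 to 58551 CPM in WT_H2AZ, 79822 to 113690 CPM in WT_Ino80, 75419 to 78729 CPM in H2AZ_4KR and 68565 to 76964 CPM in Ino80_K929R. In this summed level WT_H2AZ stood below the other 3 groups, which lay closer together apart from WT_Ino80 replicate 1 at 113690 CPM.

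**Figure D2:**
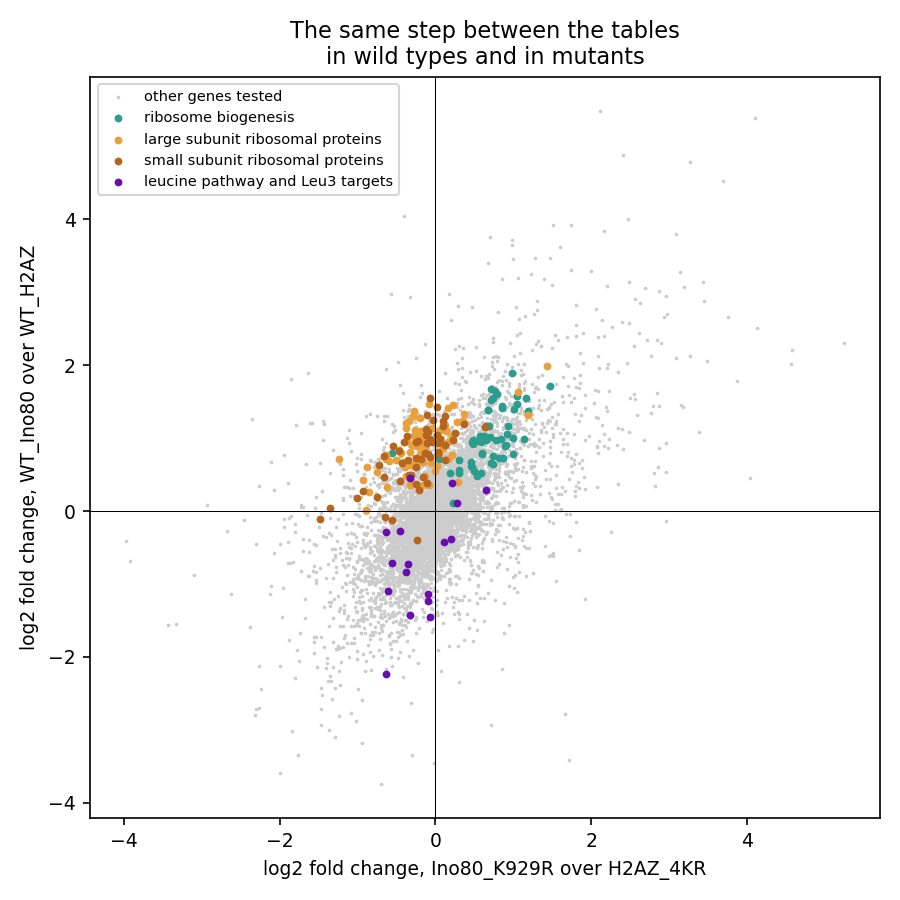
Log2 difference between the wild types (vertical) against that between the mutants (horizontal), 1 point per gene tested, with 4 gene lists coloured and LEU2 and tL(CAA)C left out as their fitted values have no bound. Ribosome biogenesis genes lie to the upper right, ribosomal protein genes lie above 0 on the vertical axis but around 0 on the horizontal one, and leucine genes lie mostly below 0 on the vertical axis.

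Small nucleolar and nuclear RNAs, which guide the modification and cutting of ribosomal RNA or act in splicing, were higher for 36 of 72 members tested and lower for none, with a median of 1.22. Their share of all fragments was 0.046% to 0.048% in WT_H2AZ and 0.142% to 0.170% in WT_Ino80. Without WT_Ino80 replicate 1, 31 were higher and 1 was lower, and between the mutants 12 were higher and 2 lower. snR30, an RNA needed to cut the small subunit rRNA, was at 31.7, 25.1 and 33.2 CPM in WT_H2AZ and at 387, 290 and 367 CPM in WT_Ino80 (log2 difference 3.62, SE 0.231, adjusted p = 2.07e-06). snR86 differed by 2.41 and snR63 by 2.37, both adjusted p = 1.15e-05.

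The difference between the wild types also followed gene length. The median log2 difference was 0.33 for 408 genes of up to 300 bases, 0.21 for those of 601 to 1000 bases and -0.26 for 821 genes over 2500 bases. Without WT_Ino80 replicate 1 these medians were 0.03, 0.09 and -0.14. Between the mutants they were -0.27, 0.02 and 0.00, so the shortest genes had the opposite sign there. Ribosomal protein genes, with median lengths of 468 bases (large subunit) and 432 bases (small subunit), and histone genes, with 399 bases, are short. An offset that removes the trend with length from each library left 1 of 11 histone genes, 2 of 16 SWR1 genes and 1 of 13 NuA4 genes higher, and it left 7 of 51 Ty genes lower. With it 10 of 30 G1/S and DNA synthesis genes and 4 of 27 Hsf1 chaperone genes were higher. What part length had in single genes was not tested.

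**Figure D3:**
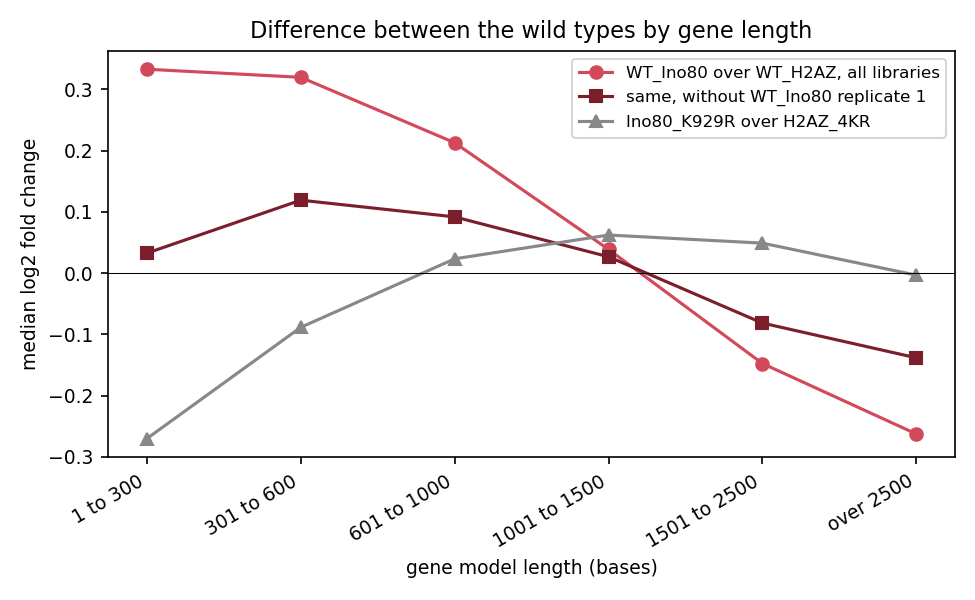
Median log2 difference of genes in 6 classes of gene model length, for the wild types with all libraries, for the wild types without WT_Ino80 replicate 1, and for the mutants. The first line falls from 0.33 to -0.26, the next is flatter, from 0.03 to -0.14, and the mutant line starts at -0.27.

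Single genes with the steepest differences came from several pathways. They are the 15 highest and 15 lowest called genes whose CPM ranges did not overlap and whose mean reached 10 CPM. After LEU2 and snR30, the higher genes included PDC6, a minor pyruvate decarboxylase gene, at 3.15, 4.17 and 3.29 CPM in WT_H2AZ and 22.8, 37.9 and 29.5 CPM in WT_Ino80 (log2 difference 3.14, SE 0.223, adjusted p = 5.84e-06). ADH2, the alcohol dehydrogenase gene that glucose represses, was at 39.2, 35 and 31 CPM in WT_H2AZ and at 319, 183 and 200 CPM in WT_Ino80 (log2 difference 2.85, SE 0.322, adjusted p = 7.4e-05). GPX2, a peroxidase gene, went from 31.5 to 52.6 CPM in WT_H2AZ to 204 to 354 CPM in WT_Ino80, and YRO2, a plasma membrane protein gene, from 73.6 to 79.4 CPM to 288 to 557 CPM. BNA2, which starts the synthesis of NAD from tryptophan, was at 2.98 to 3.85 CPM in WT_H2AZ and 11 to 21.7 CPM in WT_Ino80, with an overlapping model. SDD1, JJJ3 and snR37 differed by 2.66, 2.58 and 2.79.

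Some of the highest values leaned on 1 library. AQR1, a drug exporter gene, was at 5.43, 105 and 15.6 CPM in the WT_Ino80 libraries and at 3.9 to 4.38 CPM in WT_H2AZ. Its difference of 3.29 (adjusted p = 0.0227) was 1.43 without WT_Ino80 replicate 2 (adjusted p = 0.189), and it also missed the threshold without any 1 of the WT_H2AZ libraries (adjusted p = 0.0647 to 0.0705). RRN11, of the RNA polymerase I core factor, and YGR079W were highest in the same library, at 58.3 and 112 CPM, and differed by 3.14 and 3.17, or by 2.17 and 2.11 without it. All 3 genes were also highest in 1 mutant library, Ino80_K929R replicate 3, at 86.7, 66.3 and 93.2 CPM. SCR1, the RNA of the signal recognition particle, was at 74 CPM in WT_Ino80 replicate 1 against 25.6 and 26 in the other replicates, and its difference of 3.18 was 2.30 without it. HSP12, a membrane stress protein gene, was at 1742 CPM in that library, and its difference of 2.44 was 1.72 without it.

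Among the lowest, AGA1, the anchoring subunit gene of a-agglutinin, was at 373, 314 and 188 CPM in WT_H2AZ and at 13.1, 53.5 and 34.2 CPM in WT_Ino80 (log2 difference -3.10, SE 0.361, adjusted p = 8.2e-05). CAR2, an enzyme gene of arginine breakdown, was at 174, 192 and 173 CPM in WT_H2AZ and at 24, 25 and 24.6 CPM in WT_Ino80 (log2 difference -2.80, SE 0.153, adjusted p = 5.61e-07), with an overlapping model. BTN2, a sorting factor gene for misfolded proteins, was at 140 to 201 CPM in WT_H2AZ and 23.1 to 29.7 CPM in WT_Ino80 (log2 difference -2.70). For CAR2 and BTN2 the mutants differed in the same direction, by -2.31 and -2.26. PHO89, a phosphate transporter gene, differed by -2.79 between the wild types, from 43.4 to 135 CPM in WT_H2AZ to 7.28 to 15.9 CPM in WT_Ino80. Between the mutants its value was 1.67, but it was not called there (adjusted p = 0.052). The ranges overlapped, at 8.11 to 18.3 CPM in H2AZ_4KR and 16.1 to 81.3 CPM in Ino80_K929R. SPO24, ISF1, NDJ1, KIN82, RTS3, SDS24, DMO1 and YBL100C differed by -3.35 to -2.42, and YBL100C has an overlapping model.

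**Figure D4:**
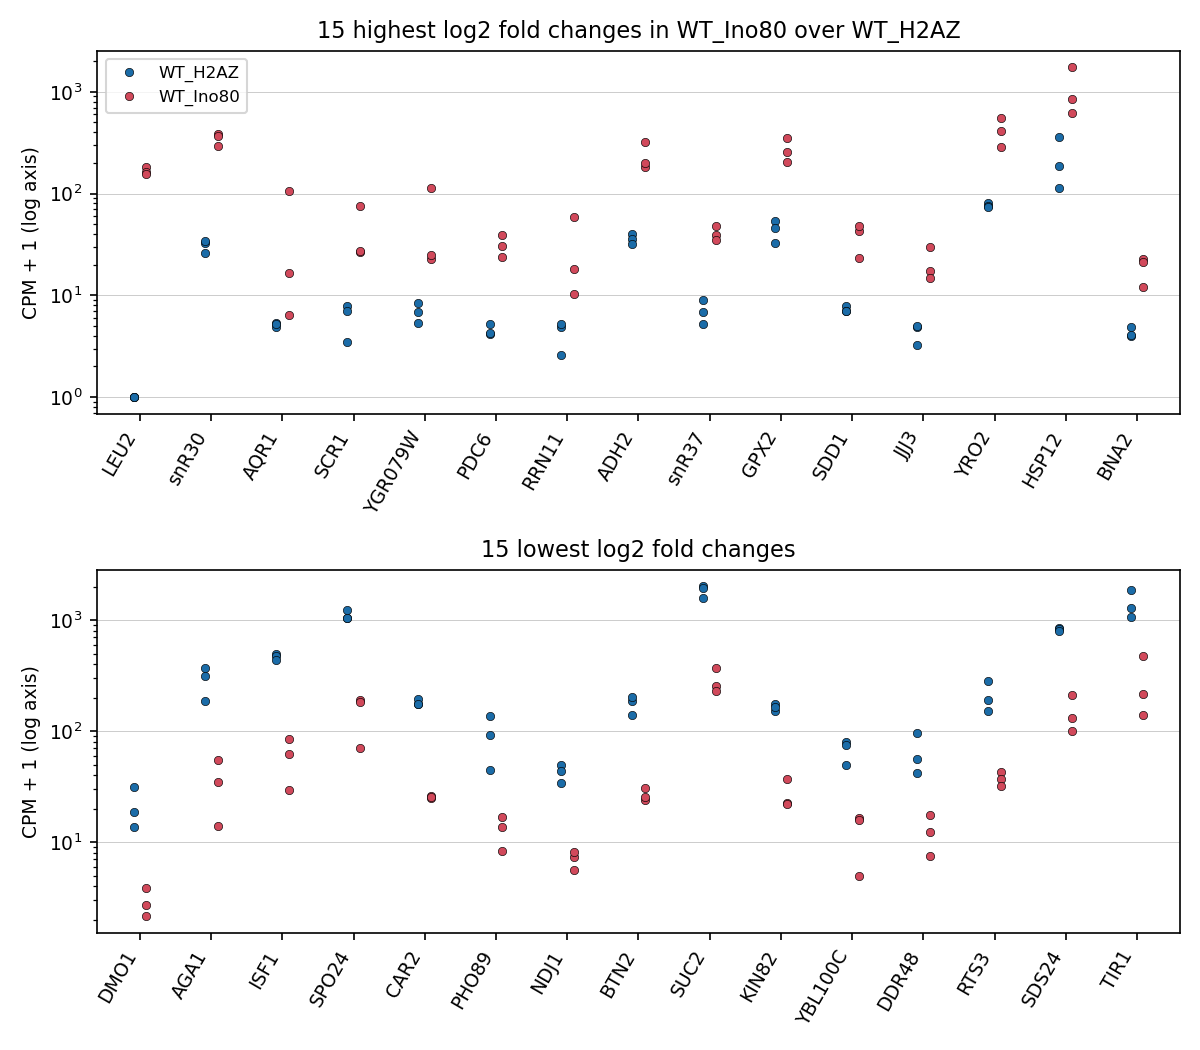
CPM plus 1 on a log axis of the 15 called genes with the highest and the 15 with the lowest log2 difference, 1 point per wild-type library. The groups do not overlap at any of these genes, as the rule that chose them required, and AQR1, YGR079W and RRN11 each have 1 WT_Ino80 library far above the others.

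Lists of carbon source genes held more lower than higher members. SUC2, the glucose-repressed invertase gene, was at 2016, 1947 and 1580 CPM in WT_H2AZ and at 252, 227 and 373 CPM in WT_Ino80 (log2 difference -2.63, SE 0.315, adjusted p = 9.34e-05). Its level in H2AZ_4KR, 380 to 442 CPM, and in Ino80_K929R, 199 to 502 CPM, lay with WT_Ino80. Of 23 hexose transporter and glucose sensing genes 10 were lower (43.5%) and 3 higher (13.0%). The lower count was 6 without WT_Ino80 replicate 2, 6 without WT_H2AZ replicate 1 and 5 without WT_H2AZ replicate 3, and 1 was higher without WT_H2AZ replicate 1 or replicate 2. HXT2, a high-affinity glucose transporter gene, was at 13915, 14000 and 13981 CPM in WT_H2AZ and at 5058, 2102 and 4232 CPM in WT_Ino80 (log2 difference -1.77, SE 0.471, adjusted p = 0.0101). MTH1, a repressor gene of glucose induction, differed by -1.99 and MIG1, the glucose repressor gene, by -0.77. HXT10 was higher, but at under 10 CPM in every library.

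In gluconeogenesis and the glyoxylate cycle 6 of 21 members were lower (28.6%) and 2 higher (9.52%). Between the mutants 5 were higher, against 10.4% of all genes, and none lower. ADR1, the activator gene of ADH2 among others, was at 443, 393 and 392 CPM in WT_H2AZ and at 76.1, 118 and 150 CPM in WT_Ino80 (log2 difference -1.79). ADH2 itself was higher, as given above. Nuclear genes of the respiratory chain were lower for 12 of 30 members (40%) and higher for 2 (6.67%, or 1 gene without WT_Ino80 replicate 1). Between the mutants 9 were lower, against 6.58% of all genes. SDH1, of succinate dehydrogenase, was at 564, 597 and 525 CPM in WT_H2AZ and at 120, 181 and 218 CPM in WT_Ino80 (log2 difference -1.65, SE 0.201, adjusted p = 9.9e-05). QCR10, of the cytochrome bc1 complex, differed by -1.71. Of 18 glycolysis and fermentation genes 4 were higher (22.2%, against 17.7% of all genes) and PYK2, a minor pyruvate kinase gene, was lower by -1.70. TPI1, the triose phosphate isomerase gene, was at 3005 to 3712 CPM in WT_H2AZ and 5326 to 8802 CPM in WT_Ino80, the highest of them in replicate 1.

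Targets of Msn2 and Msn4 and of Hsf1 held more lower than higher members, while 2 other stress lists did not. Of 42 genes of the environmental stress response (targets of Msn2 and Msn4), 16 were lower (38.1%) and 4 higher (9.52%), with a median of -0.84. The lower count was 10 without WT_Ino80 replicate 2 or without WT_H2AZ replicate 1. All 3 WT_H2AZ libraries lay above the other 9 for 18 of the 42, against 12.3% of all genes. XBP1, a stress-induced repressor gene, was at 200, 267 and 183 CPM in WT_H2AZ and at 37.1, 55.2 and 74.1 CPM in WT_Ino80 (log2 difference -1.91, SE 0.342, adjusted p = 0.00105). UBI4, the polyubiquitin gene, differed by -1.57 and DDR48 by -2.43, the latter with an overlapping model. HSP12 and GPP1, a glycerol phosphatase gene, were among the 4 that were higher. Of 27 Hsf1 chaperone genes 7 were lower (25.9%) and 2 higher (7.41%), and 11 were lower between the mutants, against 6.58% of all genes there. The higher count was 4 without WT_H2AZ replicate 1, 1 without WT_Ino80 replicate 2 and 0 without WT_H2AZ replicate 2. HSP78, a mitochondrial chaperone gene, was at 413 to 460 CPM in WT_H2AZ and 57 to 118 CPM in WT_Ino80 (log2 difference -2.29), and HSP82, an Hsp90 gene, differed by -1.44. Of 24 oxidative stress and drug export genes 5 were higher (20.8%) and 4 lower (16.7%), near the shares of all genes. The higher count was 3 without WT_Ino80 replicate 1 or WT_H2AZ replicate 1 and 1 without WT_H2AZ replicate 2 or replicate 3, and the lower count was 2 without WT_Ino80 replicate 3. Of 13 genes of the unfolded protein response 2 were higher (15.4%, near the 17.7% of all genes) and none lower. Without WT_Ino80 replicate 2, WT_H2AZ replicate 2 or WT_H2AZ replicate 3, 1 was higher.

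Cell surface genes were lower in several lists. In cell wall integrity 7 of 20 members were lower (35%) and none higher, and 4 were lower without WT_H2AZ replicate 3. SED1, a structural wall mannoprotein gene, was at 9408, 7808 and 9664 CPM in WT_H2AZ and at 2158, 3776 and 3545 CPM in WT_Ino80 (log2 difference -1.47, SE 0.244, adjusted p = 0.000644). RLM1, the transcription factor gene of the pathway, differed by -1.60. In filamentous growth and flocculation 10 of 14 members were lower and FLO1, a flocculin gene, was higher at 12.9 to 16.8 CPM in WT_H2AZ and 28.4 to 34.2 CPM in WT_Ino80. TEC1, the transcription factor gene of filamentous growth, was at 263, 363 and 249 CPM in WT_H2AZ and at 63.8, 67.6 and 53.3 CPM in WT_Ino80 (log2 difference -2.16, SE 0.188, adjusted p = 1.86e-05).

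Pheromone response genes were lower for 12 of 26 members (46.2%) and higher for none. Without WT_H2AZ replicate 2, 7 were lower, and 1 was higher without WT_Ino80 replicate 2 or WT_H2AZ replicate 1. FIG2, a mating adhesin gene, differed by -1.88, FUS3, the kinase gene of the pathway, by -0.98 and PRM5 by -2.18. The subtelomeric COS genes were lower for 8 of 12 members, with COS7 at 58.2 to 71.3 CPM in WT_H2AZ and 11.3 to 33 CPM in WT_Ino80, and these genes share much of their sequence, so the split between them is uncertain. Over all 219 tested genes within 20 kb of a chromosome end 50 were higher (22.8%, against 17.7% of all genes) and 22 lower (10.05%, against 15%). Between the mutants 62 of them were higher and 5 lower, where 10.4% and 6.58% of all genes were. Hypoxic and heme-regulated genes were lower for 7 of 20 members (35%) and higher for 3 (15%), with 4 lower without WT_H2AZ replicate 3. TIR1, a cell wall mannoprotein gene of this list, differed by -2.33, and HMX1, the heme oxygenase gene, by 2.34.

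Lipid genes had lower members as well. Of 19 inositol and phospholipid synthesis genes 7 were lower (36.8%) and none was higher. OPI3, a methyltransferase gene of phosphatidylcholine synthesis, was at 290, 296 and 264 CPM in WT_H2AZ and at 87.7, 44.9 and 45.4 CPM in WT_Ino80 (log2 difference -2.14, SE 0.34, adjusted p = 0.000488). OLE1, the fatty acid desaturase gene, was at 3361 to 4036 CPM in WT_H2AZ and 771 to 1480 CPM in WT_Ino80 (log2 difference -1.59). ACC1, the acetyl-CoA carboxylase gene, differed by -0.86.

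Other amino acid and nitrogen lists had members called in both directions. Of 30 genes of Gcn4 and amino acid synthesis 7 were lower (23.3%) and 3 higher (10%). The higher count was 1 without WT_H2AZ replicate 2 or replicate 3, or when scaled by total counts. ARG4, of arginine synthesis, was at 311, 446 and 414 CPM in WT_H2AZ and at 76.6, 116 and 82.6 CPM in WT_Ino80 (log2 difference -2.03, SE 0.177, adjusted p = 1.86e-05). HIS4, of histidine synthesis, was at 390, 407 and 487 CPM in WT_H2AZ and at 103, 124 and 112 CPM in WT_Ino80 (log2 difference -1.86), and it was lower between the mutants too (-1.44). Of 16 amino acid permease and Ssy1 sensing genes 7 were lower, BAP2 and BAP3 of the leucine list among them, or 12 without WT_Ino80 replicate 2, and HIP1, the histidine permease gene, was higher by 0.80, with an overlapping model. AGP1, a broad permease gene, differed by -1.30. In nitrogen catabolite repression 8 of 26 were lower (30.8%) and 3 higher (11.5%). CAR1, the arginase gene, was at 251 to 303 CPM in WT_H2AZ and 45.1 to 67.8 CPM in WT_Ino80. DAL1, of allantoin use, was higher by 2.09 at under 20 CPM.

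Vitamin and metal lists held more higher than lower members. Of 24 thiamine and vitamin B6 genes 12 were higher (50%) and none lower, with the same counts between the mutants. SNZ3, of vitamin B6 synthesis, was at 7.73, 7.02 and 5.38 CPM in WT_H2AZ and at 39.1, 24.7 and 29.1 CPM in WT_Ino80 (log2 difference 2.31, SE 0.282, adjusted p = 9.9e-05), and it has a near copy in SNZ2, which differed by 1.55. THI4, of thiazole synthesis, differed by 1.96 at 2.15 to 4.07 CPM in WT_H2AZ. Of 27 iron regulon genes 11 were higher (40.7%) and 3 lower (11.1%). In this list 5 were higher without WT_Ino80 replicate 2 and 1 was lower without WT_Ino80 replicate 1. FRE4, a ferric reductase gene, was at 42, 48.5 and 35.9 CPM in WT_H2AZ and at 103, 114 and 103 CPM in WT_Ino80 (log2 difference 1.41), while FRE3, another reductase gene, differed by -1.20. ZRT1, the high-affinity zinc transporter gene, was at 101 to 111 CPM in WT_H2AZ and 210 to 326 CPM in WT_Ino80 (log2 difference 1.50). SOD1, the superoxide dismutase gene of the same list of 12 zinc and copper genes, was called on replicate 1 (4434 CPM against 1881 and 2086 in the other replicates) and stood at 0.40 without it (adjusted p = 0.255).

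Histone and SWR1 genes were higher in part, with smaller counts without WT_Ino80 replicate 1. Of 15 INO80 complex genes 3 were higher (20%, near the 17.7% of all genes), or 1 without WT_Ino80 replicate 1. Of 16 SWR1 complex genes 5 were higher (31.25%), or 3 without that library. NHP10, an HMG-box subunit gene of INO80, was at 48.1, 55.7 and 51.8 CPM in WT_H2AZ and at 117, 95.4 and 106 CPM in WT_Ino80 (log2 difference 1.12, SE 0.154, adjusted p = 0.000192). VPS71, a SWR1 subunit gene, differed by 1.07. Of 13 NuA4 genes 3 were higher (23.1%) and 2 lower (15.4%), against 17.7% and 15% of all genes. There was 1 higher without WT_H2AZ replicate 1 and 1 lower without WT_Ino80 replicate 1. EPL1, of NuA4, differed by -1.01. Of 22 silencing and deacetylase genes 3 were higher (13.6%) and 2 lower (9.09%), below the shares of all genes. Without WT_Ino80 replicate 1, 4 were higher, and without WT_Ino80 replicate 2, 1 was higher and 4 lower. SIR2, the silencing deacetylase gene, differed by 0.86, with an overlapping model. Core and linker histone genes, with 5 of 11 higher (45.5%, against 17.7% of all genes), had 1 higher without WT_Ino80 replicate 1. HHT1, of histone H3, was at 360 to 403 CPM in WT_H2AZ and at 939, 648 and 723 CPM in WT_Ino80 (log2 difference 1.12).

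Counts of G1/S genes differed without WT_Ino80 replicate 1. Of 30 G1/S and DNA synthesis genes 3 were higher (10%) and 2 lower (6.67%) with all libraries, against 8 and 0 without WT_Ino80 replicate 1. None was lower without WT_H2AZ replicate 1 or replicate 2, and 1 without WT_H2AZ replicate 3. POL30, the PCNA gene, was at 9.45, 6.65 and 8.1 CPM in WT_H2AZ and at 31.3, 36.7 and 21.5 CPM in WT_Ino80 (log2 difference 1.95, SE 0.283, adjusted p = 0.000276), with an overlapping model. Of 23 mitosis and daughter-cell separation genes 5 were lower (21.7%), or 9 without WT_Ino80 replicate 2. Among 22 meiosis genes 6 were higher (27.3%) and 2 lower (9.09%), all low. IME1, the meiotic inducer gene, was at 15.4 to 16.8 CPM in WT_H2AZ and 3.87 to 7.12 CPM in WT_Ino80. REC8, the meiotic cohesin gene, was at 0.906 to 1.64 CPM in WT_H2AZ and 7.17 to 10.4 CPM in WT_Ino80. Ty retrotransposon genes, many of them near copies, were lower for 14 of 51 members tested (27.5%) and higher for 3 (5.88%). The lower count was 7 without WT_H2AZ replicate 1 and 9 without WT_H2AZ replicate 2.

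Of 10 pyrimidine synthesis genes 4 were higher (40%) and none lower, among them URA7, the CTP synthase gene, at 99.6 to 119 CPM in WT_H2AZ and 216 to 370 CPM in WT_Ino80, with an overlapping model. Of 24 sulfur and methionine genes tested 8 were lower (33.3%) and 4 higher (16.7%, or 2 genes without WT_H2AZ replicate 3). MET13, a folate enzyme gene of methionine synthesis, was at 109 to 128 CPM in WT_H2AZ and 39.4 to 57.4 CPM in WT_Ino80. The phosphate regulon had 4 higher (19.0%, or 2 genes without WT_H2AZ replicate 1) and 3 lower (14.3%) of 21, near the shares of all genes. PHO3, an acid phosphatase gene that thiamine represses, was higher by 1.26 and PHO81, an inhibitor gene of the phosphate kinase, lower by -0.69, or -0.58 and under the fold limit without WT_Ino80 replicate 1. Of 66 mitochondrial ribosomal protein genes 4 were higher (6.06%) and 2 lower (3.03%), below the 17.7% and 15% of all genes, and at most 1 was higher without WT_Ino80 replicate 1, WT_H2AZ replicate 1 or WT_H2AZ replicate 3. Lower counts there were 0 without WT_Ino80 replicate 2 or replicate 3 or WT_H2AZ replicate 2, and 1 without WT_H2AZ replicate 1. The cytosolic and the mitochondrial ribosome lists thus had different counts, though the difference between the lists was not tested.

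**Figure D5:**
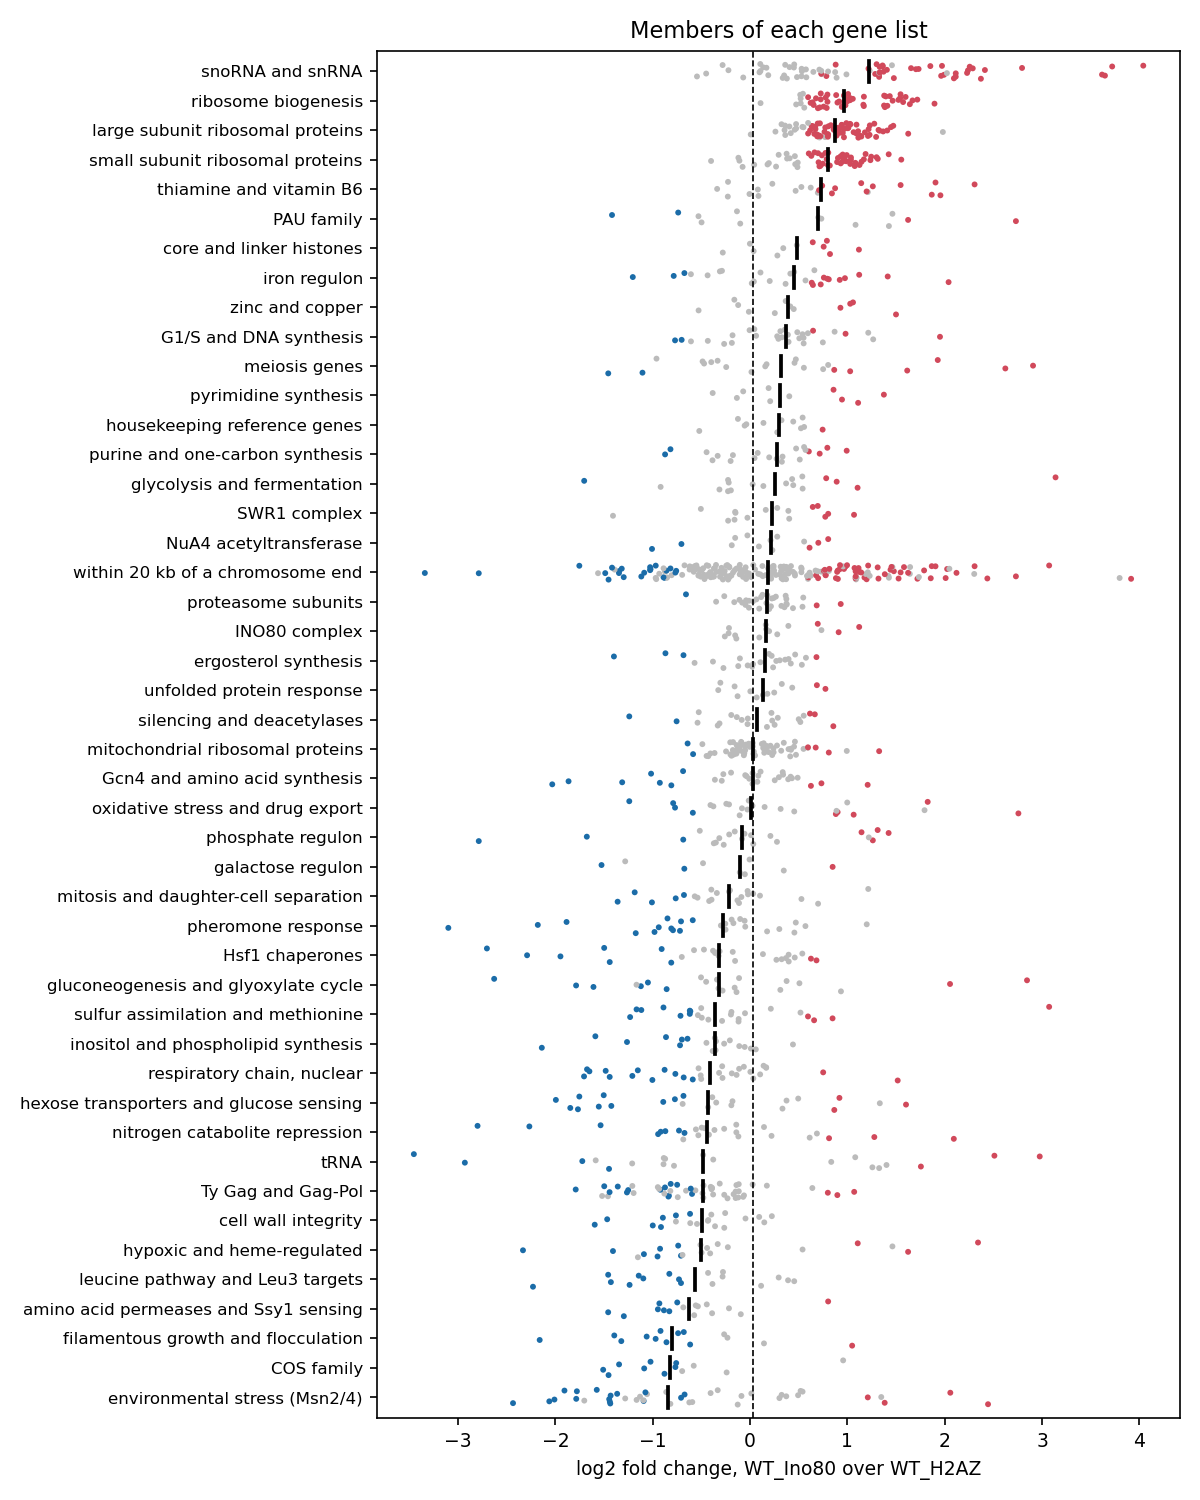
Log2 difference of each tested member of the gene lists with at least 9 tested members, with red for called higher, blue for called lower and grey for not called. A black bar marks each list's median and the dashed line the median of all genes, 0.03; LEU2 and tL(CAA)C lie off the scale. Medians run from -0.84 for stress genes to 1.22 for snoRNA and snRNA genes.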

How the data were processed

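The deposited values are counts of fragments per gene and library, made by the authors with featureCounts 2.0.1 without regard to strand, per the file headers, from reads aligned with Bowtie 0.12.2 to sacCer3, per the submitters' processing notes. Antisense and overlapping genes can therefore not be separated. Of 7127 gene IDs, 6047 matched the R64 reference, 6038 with the same start and end.

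All 12 libraries were fitted by edgeR's quasi-likelihood test (version 4.0.16, R 4.3.3) with 4 group means, TMM factors, Benjamini-Hochberg adjustment and genes kept by filterByExpr at a minimum of 10. Every adjusted p is from this fit unless another tool or setting, such as a library left out, is named. Thresholds of adjusted p below 0.05 and a fold over 1.5 are those the series states. P-values set the group difference against the spread between replicates, estimated from all 12 libraries, mutants included. That spread may be technical. CPM are counts divided by the library's total. The length offset was a loess (span 0.5) of log CPM on gene length. The test of the wild-type difference against the mutant difference was added after seeing the data. So was the length offset with WT_Ino80 replicate 1 left out. Alternatives used DESeq2 1.42.0 and limma 3.58.1, among other settings. The fit was tested on simulated data.

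Members and lists were chosen with earlier results of these data known, so list counts are descriptions. Named genes were the marker genes, the 15 highest and 15 lowest called genes with at least 10 CPM and no overlap, up to 4 called members of each list by adjusted p, and the whole leucine list. HMRA1, MATALPHA1 and HMLALPHA1 were named after their values were seen. MEL1 and FLO8 matched no ID. Replicates differed by more than sampling noise.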

Additional observations from a re-analysis of the deposited data

Results flagged for a closer look

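The difference between the wild types was tested against the difference between the mutants, a test added after seeing the data, and 265 genes (4.25% of those tested) differed at the same limits with edgeR and Benjamini-Hochberg adjustment. In these genes the step from the H2AZ table to the Ino80 table was not the same in wild types and mutants. Among the genes named, LEU2 had the highest value, a log2 difference of differences of 14.66, which is fitted against libraries at 0 and is no bound. Of the other leucine genes LEU1 was at -1.60, BAP2 at -1.38, LEU4 at -1.15 and BAT1 at -1.10. The genes mutated in the other arms were both in this set: INO80, whose model overlaps another gene, was at -3.10 (adjusted p = 2.35e-06), and HTZ1 was at 2.30 (adjusted p = 7.48e-05), each with its high level in its own mutant. PHO89 stood at -4.46 and SUC2 at -2.31, with all 3 WT_H2AZ libraries above those of H2AZ_4KR at both. Among carbon source and respiratory genes ADR1 was at -2.26, JEN1, the lactate transporter gene, at -2.04, SDH2 at -1.04 and QCR9 at -0.89. In amino acid and sulfur synthesis CPA1 was at -1.11, ARG4 at -1.02 and MET13 at -0.98. TEC1 was at -1.52, FIG2 at -1.32 and IME1 at -1.20, and the drug export list held PDR15 at -1.71 and RSB1 at -1.48. Near chromosome ends GEX2, which was higher in both comparisons, was at -2.08, COS12 at -1.43 and COS8 at -0.74. Small RNAs with positive values were snR30 at 2.02, snR37 at 1.76 and snR63 at 1.63. Of the named ribosomal protein genes RPL38 was at 1.64, RPS24A at 1.40, RPL18B at 1.22, RPS1B at 1.08, RPL6B at 0.96 and RPS7B at 0.89, and of the biogenesis genes NOP4 was at 0.96 and NOP15 at 0.81. HTA2, of histone H2A, and AAC3, an ADP/ATP carrier gene, were both at 1.05, and IMD4, of guanine nucleotide synthesis, was at 1.01. Of the ribosomal protein genes 24 of the large and 18 of the small subunit were among the 124 genes with a positive value (1.99%). Of 56 ribosome biogenesis genes 2 were. Between the wild types, ribosomal protein genes called higher fell without WT_Ino80 replicate 1, from 62 to 38 (large) and from 40 to 25 (small). No value of the test against the mutant difference is given here without that library or with the length offset. The causes were not tested, and the mutant difference also holds both mutations.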

How the results depend on the processing

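The 2036 called genes became 1733 to 2127 with 1 wild-type library left out, 1904 with the gene length offset and 1859 with that offset and WT_Ino80 replicate 1 left out. A test against the 1.5-fold limit (glmTreat) called 754 genes, 441 higher and 313 lower, and a fold over 2 called 941, 544 higher and 397 lower; by construction both ask for more. Between the mutants these gave 246 and 475 genes in place of 1058. Replicate numbers did not pair the samples: same-numbered deviations correlated at -0.147, -0.145 and 0.081, and not every library correlated best with its own number. A fit of the 6 wild-type libraries alone called 1843 genes. A replicate block called 1928 genes, or 1450 in a fit of those 6 libraries, with 711 of them higher. The cause was not tested. No named gene that was called with all libraries changed sign under these settings, but some that were not called did. Under the length offset LYS2 was at 0.18, STE6 at 0.089 and INO80 at 0.20, and with WT_Ino80 replicate 1 also left out they were at 0.14, 0.22 and 0.013, with MAE1 at 0.072. With 1 library left out STE6 ranged from -0.47 to 0.061, NDT80 from -0.072 to 0.063, LEU3 from -0.028 to 0.29 and ILV5 from -0.052 to 0.50. NDT80 was at -0.045 when scaled by total counts and at -0.0002 in the fit of 6 libraries. Strain, table and batch cannot be told apart by any setting, and with 3 libraries a group genes of few fragments have wide errors.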
